A study of Mus musculus with 8 samples.

Results

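The genes described here are the canonical core histone genes and the linker histone genes of the mouse, taken as every gene in the expression matrices whose name begins with Hist1h, Hist2h, Hist3h or Hist4h. Membership was set by name alone, with no measured value used, but the family was chosen with earlier results of these data known. There were 63 such genes among 20408 genes listed in at least 1 of 8 libraries, of which 58 were listed in all 8 libraries. They comprised 6 linker (H1) genes and 57 core genes, namely 17 H2A, 16 H2B, 12 H3 and 12 H4 genes. In the GRCm38 annotation 50 of the 63 lay on chromosome 13 between 21715763 and 23764406, 10 on chromosome 3, 2 on chromosome 11 and 1 on chromosome 6.

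The libraries were single-cell RNA sequencing (10x Chromium 3′ chemistry) of sorted CD31+ tumour endothelial cells (ECs) in 4 groups of 2 mice, with 1 library per mouse. Spontaneous tumours arose in female MMTV-PyMT mice, in which the mouse mammary tumour virus promoter drives the polyoma middle T oncogene in mammary epithelium, and were treated from 9 weeks of age. Implanted tumours were grown from cultured MMTV-PyMT tumour cells placed into the mammary fat pad of recipient females aged 8 to 9 weeks. Within each model the tumours received either 70 µl PBS or 14 µg of 3′3′-cGAMP, a cyclic dinucleotide that activates the innate sensor STING, in 70 µl PBS, and the ECs were collected 3 h later. The labels give the strain of all 8 samples as c57bl/6, whereas the methods of the study describe FVB recipients, and this could not be settled here. With 2 libraries per group, the standard deviations (SD) below describe 2 mice, and p-values measure the spread between these libraries.

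Canonical histones package newly replicated DNA. Octamers of H2A, H2B, H3 and H4 form the nucleosome core, and H1 binds the DNA between cores. Their genes lack introns in most cases, are transcribed during S phase, and give mRNAs that end in a conserved stem-loop in place of a poly(A) tail. The stem-loop is bound by SLBP, which carries the mRNA through processing and translation, and the mRNA is degraded when DNA synthesis stops. Some canonical genes also give polyadenylated transcripts, which are known from cells that have left the cell cycle. The chemistry used here primes on poly(A), so that a stem-loop mRNA without a tail is captured poorly, and the values below describe captured molecules.

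Of the 63 genes, 44 held the stem-loop in their annotated transcript (GENCODE, GRCm38), and the annotated transcripts of 13 genes had no 3′ untranslated region at all. The annotated transcript means here the longest protein-coding transcript of a gene, and the stem-loops and ends of shorter ones are not described. The stem-loop is shown for 5 genes on which the results turn, with its stem and loop in capitals. They are Hist1h2ap (an H2A gene, chr13:21833026-21833048, minus strand), Hist1h3c (an H3 gene, chr13:23745041-23745066, minus strand), Hist1h4h (an H4 gene, chr13:23531454-23531479, plus strand), Hist1h1e (a linker gene, chr13:23621776-23621801, minus strand) and Hist1h1c (a linker gene, chr13:23739508-23739533, plus strand).
Hist1h2ap: aaaaGGCTCTTTTCAGAGCCatc
Hist1h3c: aaaaGGCTCTTTTAAGAGCCacctaa
Hist1h4h: caaaGGCCCTTTTCAGGGCCgcccac
Hist1h1e: caaaGGCTCTTTTCAGAGCCacccac
Hist1h1c: aaaaGGCTCTTTTCAGAGCCaccact
The annotated transcript went on for 3 bases past the stem-loop in Hist1h2ap, for 46 in Hist1h4h and for 74 in Hist1h3c, whereas it went on for 840 bases in Hist1h1c and for 1153 in Hist1h1e. Among the 44 genes, 20 ended within 60 bases of the stem-loop and 17 held a poly(A) signal past it.

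The promoters of the members are shown next because genes of 1 cluster on chromosome 13 differed in response below. RefSeq promoters (GRCm38.p6, 250 bases before to 50 bases after the start) were matched for 58 of the 63 genes. Printed are the bases upstream of the RefSeq start, which lies 1 base before the GENCODE start in Hist1h1c, for 4 genes that were lower after cGAMP in implanted tumours and for Hist1h1c, which was not. Capitals mark, on either strand, the CCAAT box (CCAAT), the TATA box (spelt TATAAA), an H1 box (spelt AAACACA) and E2F-type letters (TTTNGCGC). The windows are Hist1h2ap at chr13:21833508-21833625 (minus strand), Hist1h3c at chr13:23745603-23745671 (minus strand), Hist1h1b at chr13:21780626-21780775 (minus strand), Hist1h1e at chr13:23622559-23622708 (minus strand) and Hist1h1c at chr13:23738657-23738806 (plus strand).
Hist1h2ap: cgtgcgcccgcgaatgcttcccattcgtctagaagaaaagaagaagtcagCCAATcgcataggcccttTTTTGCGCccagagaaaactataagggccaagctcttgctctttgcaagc
Hist1h3c: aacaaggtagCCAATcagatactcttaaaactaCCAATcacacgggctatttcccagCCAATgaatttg
Hist1h1b: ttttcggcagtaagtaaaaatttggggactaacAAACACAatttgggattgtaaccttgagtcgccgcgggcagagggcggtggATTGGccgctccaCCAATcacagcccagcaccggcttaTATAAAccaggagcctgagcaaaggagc
Hist1h1e: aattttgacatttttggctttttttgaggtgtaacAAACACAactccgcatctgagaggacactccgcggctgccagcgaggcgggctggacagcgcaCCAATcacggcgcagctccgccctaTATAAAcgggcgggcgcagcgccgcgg
Hist1h1c: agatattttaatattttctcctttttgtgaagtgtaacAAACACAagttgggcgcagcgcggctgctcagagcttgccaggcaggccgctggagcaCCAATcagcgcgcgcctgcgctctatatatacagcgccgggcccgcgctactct
CCAAT stood in 86.2% of the 58 promoters against 37.4% of 32851 RefSeq promoters of the same length. All 6 H1, 17 H2A, 14 H2B and 10 H3 promoters held it, compared with 3 of 11 H4 promoters. TATAAA was found in 55.2% against 13.6%. The E2F-type letters TTTNGCGC stood in 7 of 17 H2A and 6 of 14 H2B promoters, in no H1, H3 or H4 promoter, and in 1.38% of all promoters. The H1 box, a run of letters chosen after the H1 promoters had been read, was held by 5 of 6 H1 promoters and by 7.18% of all. The interferon-response-type letters TTTCNNTTT were found in 24.1% of members, none of them H1, against 10.6% of all promoters. The printed Hist1h1e and Hist1h1c promoters shared the H1 box and CCAAT, and only the former held TATAAA in the printed stretch. The octamer ATGCAAAT was found in 6 of 17 H2A and 5 of 14 H2B promoters, in none of the other families, and in 1.74% of all promoters. These matches describe letters only.

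Of 8204 deposited cells, 7159 had a UMI of Pecam1, the gene of CD31, and these are the cells used here. All 12 endothelial marker genes listed were detected in every group, at a summed 8020 to 9312 CPM (a gene's UMIs in a cell divided by all UMIs of that cell, times 1000000). Each of these cells was called positive if it held a UMI of Mki67 or Top2a, which are genes of cycling cells, and negative otherwise, giving 753 positive and 6406 negative cells. The libraries held 7451522 to 16338968 UMIs in Pecam1 > 0 cells, and the median cell held 9523 to 14708 UMIs except in implanted cGAMP replicate 1, where it held 3049. Between libraries 7 cell barcodes were shared over 28 pairs. Levels are given as the mean CPM over the cells of a library.

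The positive share of ECs was 11.6% and 9.98% after PBS and 5.52% and 6.35% after cGAMP in spontaneous tumours. In implanted tumours it was 18.1% and 18.5% after PBS and 5.69% and 4.80% after cGAMP. The 95% Wilson intervals, which cover counting error only, were 9.74% to 13.8%, 7.84% to 12.6%, 4.03% to 7.52% and 4.76% to 8.42% for the spontaneous libraries in that order. They were 15.8% to 20.6%, 16.3% to 20.9%, 4.64% to 6.97% and 3.36% to 6.81% for the implanted libraries. Thinned to 2000 UMIs per cell, the shares were 5.56% and 3.43% against 1.08% and 1.09% in spontaneous tumours, and 8.34% and 9.15% against 2.53% and 0.708% in implanted tumours. In both models each PBS library lay above each cGAMP library, before and after thinning. A single UMI of Mki67 or Top2a had made 36.9% to 49.1% of the positive cells after PBS and 62.2% to 81.8% after cGAMP, and the part of free RNA in these calls was not tested. Positive cells were deeper than negative cells, with library medians of 16410 to 20988 UMIs against 2869 to 14298.

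The 63 genes gave 38161 UMIs in Pecam1 > 0 cells. Linker genes took 27.1% of them, and 5 genes took 55.5%, namely Hist1h2ap, Hist1h1e, Hist1h2ae, Hist1h2bc and Hist1h1c. A mean below 1 CPM was found for 36 genes, and 2 genes had no UMI in these cells. Because the UMIs come from transcript ends of unequal capture, they are not read here as an order of expression between genes.

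Summed over all members, the level was 490 and 246 CPM after PBS and 206 and 234 CPM after cGAMP in spontaneous tumours. In implanted tumours it was 500 and 680 CPM after PBS and 256 and 240 CPM after cGAMP. The group means were 368 ± 173, 220 ± 20, 590 ± 128 and 248 ± 12 CPM (SD, n = 2 each), respectively. The PBS and cGAMP libraries did not overlap in either model, but spontaneous PBS replicate 2 stood close to the cGAMP libraries.

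**Figure D1:**
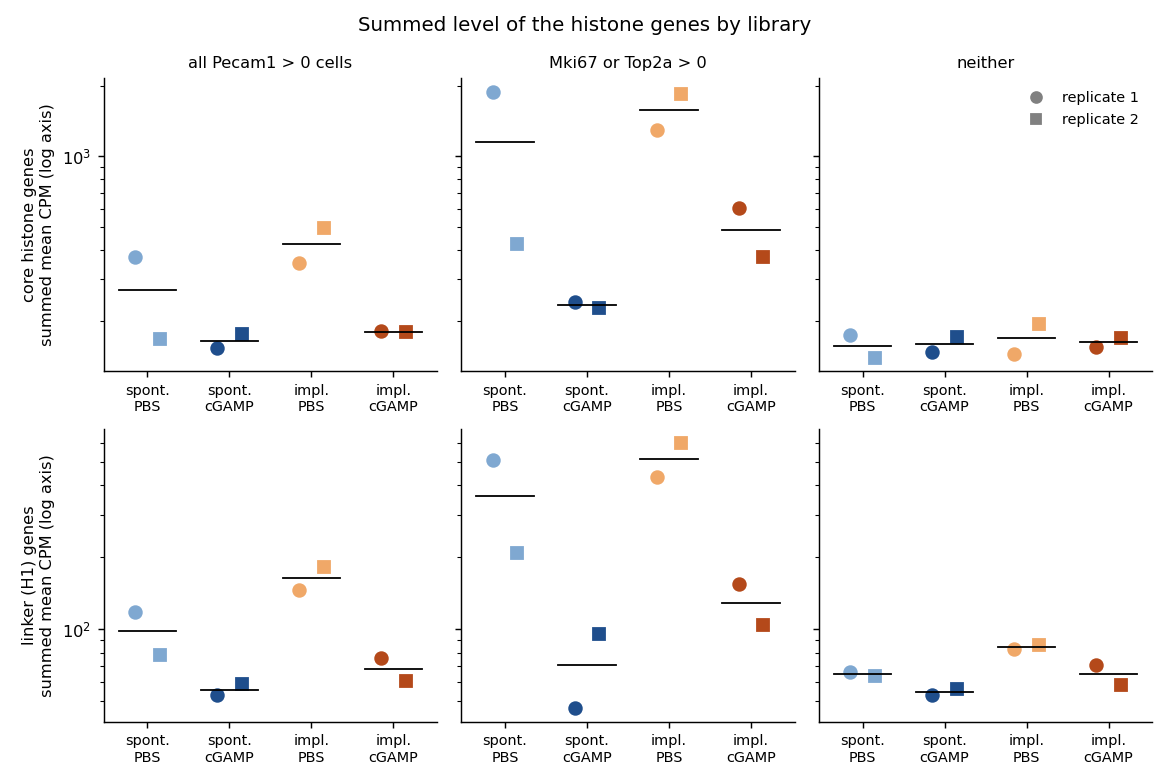
Summed CPM of the core and of the linker histone genes in each library, for all Pecam1 > 0 cells, for cells with a UMI of Mki67 or Top2a and for cells without. The axes are logarithmic, each point is 1 library and lines mark the mean of 2. Positive cells of PBS libraries stand highest, except that spontaneous PBS replicate 2 falls below implanted cGAMP replicate 1 for core genes, and the libraries lie close together in negative cells, where core and linker genes add up to 201 to 279 CPM.

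The split by Mki67 or Top2a divided this difference unevenly. In negative cells the members of both classes together summed to 222 ± 26 CPM after PBS and 215 ± 19 CPM after cGAMP in spontaneous tumours, and to 253 ± 37 and 227 ± 1 CPM in implanted tumours. In positive cells they summed to 2397 and 631 CPM after PBS against 288 and 322 CPM after cGAMP in spontaneous tumours. The values in implanted tumours were 1732 and 2446 CPM after PBS against 758 and 476 CPM after cGAMP. Positive cells held 48.7% to 78.9% of the members' UMIs after PBS and 10.2% to 22.1% after cGAMP, while holding 16.6% to 26.9% and 7.95% to 13.7% of all UMIs.

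By family, H2A genes summed to 226 and 61.0 CPM after PBS and to 54.3 and 67.7 CPM after cGAMP in spontaneous tumours, so that the libraries overlapped and the mean difference of 57.6% came from spontaneous PBS replicate 1. H3 genes summed there to 28.6 and 14.1 CPM against 11.4 and 12.2 CPM, H1 genes to 118 and 78.4 CPM against 53.0 and 59.0 CPM, and H4 genes to 70.3 and 62.9 CPM against 47.5 and 54.4 CPM. These 3 families did not overlap and had means lower by 44.7%, 42.9% and 23.5%, though the H3 value of PBS replicate 2 stood close to the cGAMP libraries. In implanted tumours H2A was at 204 and 315 CPM against 76.4 and 62.5 CPM and H1 at 146 and 182 CPM against 75.8 and 60.7 CPM, with means lower by 73.3% and 58.3%. The means of H3 and H4 were lower by 63.8% and 40.5% there, again without overlap. H2B was at 46.9 and 29.6 CPM after PBS and at 39.9 and 40.6 CPM after cGAMP in spontaneous tumours, which overlap, and at 58.9 and 64.7 CPM against 57.4 and 56.0 CPM in implanted tumours. Differences between families were not tested.

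Markers of other cells differed between the groups as well. Epithelial tumour markers (11 genes, all detected) summed to 392 to 525 CPM in spontaneous libraries, to 187 and 230 CPM in implanted PBS libraries, and to 815 and 97.0 CPM in implanted cGAMP replicates 1 and 2. Mural markers (10 of 10 detected) summed to 292 and 692 CPM after PBS and 1024 and 798 CPM after cGAMP in spontaneous tumours, and to 232 to 417 CPM in implanted tumours. Over both models, immune markers (12 of 12) summed to 16.5 to 30.9 CPM in PBS libraries and 36.6 to 265 CPM in cGAMP libraries, fibroblast markers (7 of 7) to 21.1 to 122 CPM and 95.7 to 221 CPM, and erythroid markers (2 to 4 of 4) to 0.274 to 10.6 CPM and 1.63 to 37.6 CPM. The methods of the study gate live ECs as cells with CD31 and without CD45, the immune cell marker. A supplementary figure of the study gives the same gating strategy for the sorts behind its bulk and single-cell data. The part of other cell types in the results below was not tested, beyond the following. Cells with a UMI of Epcam, Ptprc or Pdgfrb were left out, a choice made after seeing the data. The members called below then numbered 3 of 16 in spontaneous tumours, beside 1120 of all 10337 genes tested. In implanted tumours they numbered 7 of 16, beside 2301 of 10337.

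To ask what cGAMP changed within each model, log2(mean CPM + 1) was compared with limma across all genes that reached 5 CPM in at least 2 libraries, and a gene was called at a Benjamini-Hochberg adjusted p under 0.05. Of the 63 members 17 passed this filter, 4 linker and 13 core genes, and a gene could pass through the group in which it was high. In spontaneous tumours 4 of 17 members were called, 2 lower and 2 higher, beside 12.7% of all 10424 genes tested (7.59% lower and 5.09% higher). In implanted tumours 10 of 17 were called, 9 lower and 1 higher, beside 25% of all genes (16.4% lower and 8.6% higher). Hist1h1b, Hist1h1d, Hist1h2be, Hist1h3c, Hist1h3e and Hist2h2bb reached 5 CPM in 2 PBS libraries but not in 2 cGAMP libraries. Their inclusion favoured lower values after cGAMP. As a description only, the median log2 fold change of the 17 was -1.06 in spontaneous and -1.08 in implanted tumours, against -0.10 for all genes in each. With median-of-ratios scaling the members' counts were 4 and 9, while the higher share of all genes called went from 40.2% to 66.4% in spontaneous and from 34.3% to 51.5% in implanted tumours. Leaving out a library changed these counts. The count of 4 became 2 without spontaneous PBS replicate 1 or either implanted PBS library, 1 without either spontaneous cGAMP library, and 7 without either implanted cGAMP library. The count of 10 became 6 without implanted PBS replicate 1 or implanted cGAMP replicate 2 and 2 without implanted PBS replicate 2.

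Among linker genes, Hist1h1e, a variant found in most somatic cells, was at 60.5 and 47.6 CPM after PBS and at 18.7 and 25.0 CPM after cGAMP in spontaneous tumours. In implanted tumours it was at 70.7 and 79.2 CPM after PBS and at 30.1 and 20.6 CPM after cGAMP. All 4 PBS libraries lay above all 4 cGAMP libraries. The log2 fold changes were -1.27 ± 0.20 (SE, adjusted p = 0.0033) and -1.55 ± 0.20 (adjusted p = 6.2e-04). Both calls held in all 21 alternatives tried, with log2 fold changes from -1.66 to -1.07 and from -1.81 to -1.28, and adjusted p of at most 0.0448 and 0.00887. Without cells carrying Epcam, Ptprc or Pdgfrb UMIs the values were -1.18 and -1.51. The last 400 bases of its annotated transcript lie entirely in windows shared with other gene models, Hist1h2be and Gm11398 overlapping it on the same strand, so the assignment of its UMIs is uncertain.

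Hist1h1c, another somatic linker gene that has a long polyadenylated form in the annotation, took the opposite direction in spontaneous tumours. It was at 22.5 and 17.8 CPM after PBS and at 31.9 and 28.1 CPM after cGAMP, a log2 fold change of 0.56 ± 0.16 (adjusted p = 0.048). This call was lost in 14 of 21 alternatives, among them the removal of any spontaneous or implanted PBS library or of either spontaneous cGAMP library, where the log2 fold change ran from 0.40 to 0.72. In implanted tumours Hist1h1c was at 37.4 and 42.0 CPM after PBS and at 29.5 and 37.8 CPM after cGAMP, overlapping values that gave -0.24 ± 0.16 (adjusted p = 0.302).

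Hist1h1b, a linker gene of proliferating cells, was at 29.9 and 45.7 CPM after PBS and at 12.3 and 1.53 CPM after cGAMP in implanted tumours, and it fell by 2.71 ± 0.70 on the log2 scale (adjusted p = 0.0198). The call was lost without implanted PBS replicate 1 (-3.01), PBS replicate 2 (-2.41) or cGAMP replicate 2 (-1.51). In spontaneous tumours it was at 24.8 and 8.79 CPM against 1.48 and 3.32 CPM, and the log2 fold change of -2.28 ± 0.70 missed the threshold (adjusted p = 0.0621). Hist1h1d was at 6.66 and 3.84 CPM against 0.647 and 1.66 CPM in spontaneous tumours and at 4.76 and 8.34 CPM against 3.09 and 0.863 CPM in implanted tumours, with adjusted p of 0.0685 and 0.0615. Hist1h1a did not pass the filter over all cells (0 to 6.54 CPM), and Hist1h1t, the testis-specific linker gene, had 1 UMI in all libraries together.

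H2A genes gave most of the core UMIs. Hist1h2ap was at 117 and 19.6 CPM after PBS and at 8.24 and 18.0 CPM after cGAMP in spontaneous tumours, so that spontaneous PBS replicate 2 lay just above the cGAMP libraries. In implanted tumours it was at 89.6 and 144 CPM after PBS and at 24.1 and 9.36 CPM after cGAMP, well apart. Hist1h2ap fell there by 2.83 ± 0.72 on the log2 scale (adjusted p = 0.0181), and the difference in spontaneous tumours was -1.89 ± 0.72 (adjusted p = 0.115).

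In implanted tumours Hist1h2ae was at 49.2 and 84.2 CPM after PBS and at 11.002 and 3.73 CPM after cGAMP, with a log2 fold change of -3.12 ± 0.76 (adjusted p = 0.0154). Hist1h2ak was at 31.8 and 47.4 CPM against 6.58 and 1.59 CPM, with -3.17 ± 0.65 (adjusted p = 0.00666). In spontaneous tumours the values of Hist1h2ae were 49.7 and 6.08 CPM against 6.54 and 9.01 CPM, which overlap, and those of Hist1h2ak were 30.8 and 7.84 CPM against 2.68 and 7.11 CPM. Neither passed there (adjusted p = 0.36 and 0.132). All 3 calls in implanted tumours were lost without implanted PBS replicate 2, where the log2 fold changes were -2.49 for Hist1h2ap, -2.74 for Hist1h2ae and -2.89 for Hist1h2ak. Without implanted cGAMP replicate 2, those of Hist1h2ap (-2.19) and Hist1h2ae (-2.45) were lost too. Many H2A genes encode nearly the same protein, and 92.9% of the 60-base windows of the Hist1h2ap transcript were shared with other genes, so reads may have been split between copies.

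Not every H2A gene was lower. Hist3h2a, the H2A gene of a small separate cluster, was at 14.5 and 19.5 CPM after PBS and at 27.9 and 23.5 CPM after cGAMP in spontaneous tumours, and at 22.4 and 20.02 CPM against 22.7 and 36.9 CPM in implanted tumours. The cGAMP libraries were above the PBS libraries in each model, but the log2 fold changes of 0.58 ± 0.22 and 0.43 ± 0.22 missed the threshold (adjusted p = 0.119 and 0.188).

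Hist1h2bc, an H2B gene, was the member called higher after cGAMP in both models. It was at 24.4 and 20.2 CPM after PBS and at 33.2 and 29.2 CPM after cGAMP in spontaneous tumours, and at 35.2 and 37.3 CPM against 47.4 and 47.7 CPM in implanted tumours. The log2 fold changes were 0.47 ± 0.12 (adjusted p = 0.0376) and 0.38 ± 0.12 (adjusted p = 0.0493). The groups did not overlap, yet these calls held in only 10 and 7 of 21 alternatives. The spontaneous call was lost without spontaneous PBS replicate 2 (0.34), either spontaneous cGAMP library (0.38 and 0.56) or either implanted PBS library (0.47 each). The implanted call was lost without any implanted library (0.34 to 0.42) and without either spontaneous cGAMP library (0.38 each). The longest annotated Hist1h2bc transcript has 2 exons and no stem-loop. Hist1h2be was at 2.93 to 7.05 CPM and Hist2h2bb at 1.39 to 7.03 CPM over the 8 libraries, and neither was called.

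Among H3 genes, Hist1h3c was at 9.54 and 13.6 CPM after PBS and at 1.16 and 0.102 CPM after cGAMP in implanted tumours, with a log2 fold change of -3.01 ± 0.57 (adjusted p = 0.00498). Hist1h3e was at 8.71 and 7.53 CPM against 2.04 and 1.07 CPM, with -1.86 ± 0.36 (adjusted p = 0.00516). The Hist1h3c call was lost without implanted PBS replicate 2 (-2.77) and the Hist1h3e call without implanted PBS replicate 1 (-1.77). In spontaneous tumours Hist1h3c was at 8.66 and 1.98 CPM against 0.475 and 0.844 CPM and Hist1h3e at 6.84 and 3.94 CPM against 1.62 and 2.39 CPM, with adjusted p of 0.0832 and 0.0828.

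Of the H4 genes, Hist1h4h was at 12.99 and 10.5 CPM after PBS and at 4.25 and 5.32 CPM after cGAMP in spontaneous tumours, with a log2 fold change of -1.14 ± 0.27 (adjusted p = 0.0246). In implanted tumours it was at 10.9 and 8.45 CPM against 3.07 and 5.24 CPM, with -1.08 ± 0.27 (adjusted p = 0.0168). The first of these calls was lost without any spontaneous library (as far as -1.28), and the second without implanted PBS replicate 1 (-0.91), PBS replicate 2 (-1.24) or cGAMP replicate 1 (-0.77). Hist1h4d, whose annotated transcript runs 770 bases past the stem-loop, was at 35.1 and 49.97 CPM against 22.5 and 28.8 CPM in implanted tumours, a log2 fold change of -0.70 ± 0.19 (adjusted p = 0.0267) that lost its call without PBS replicate 2 (-0.45) or cGAMP replicate 1 (-0.53). Its values in spontaneous tumours overlapped, at 40.7 and 35.2 CPM against 27.7 and 35.5 CPM. Hist1h4i stayed at 4.92 to 7.70 CPM in all libraries.

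**Figure D2:**
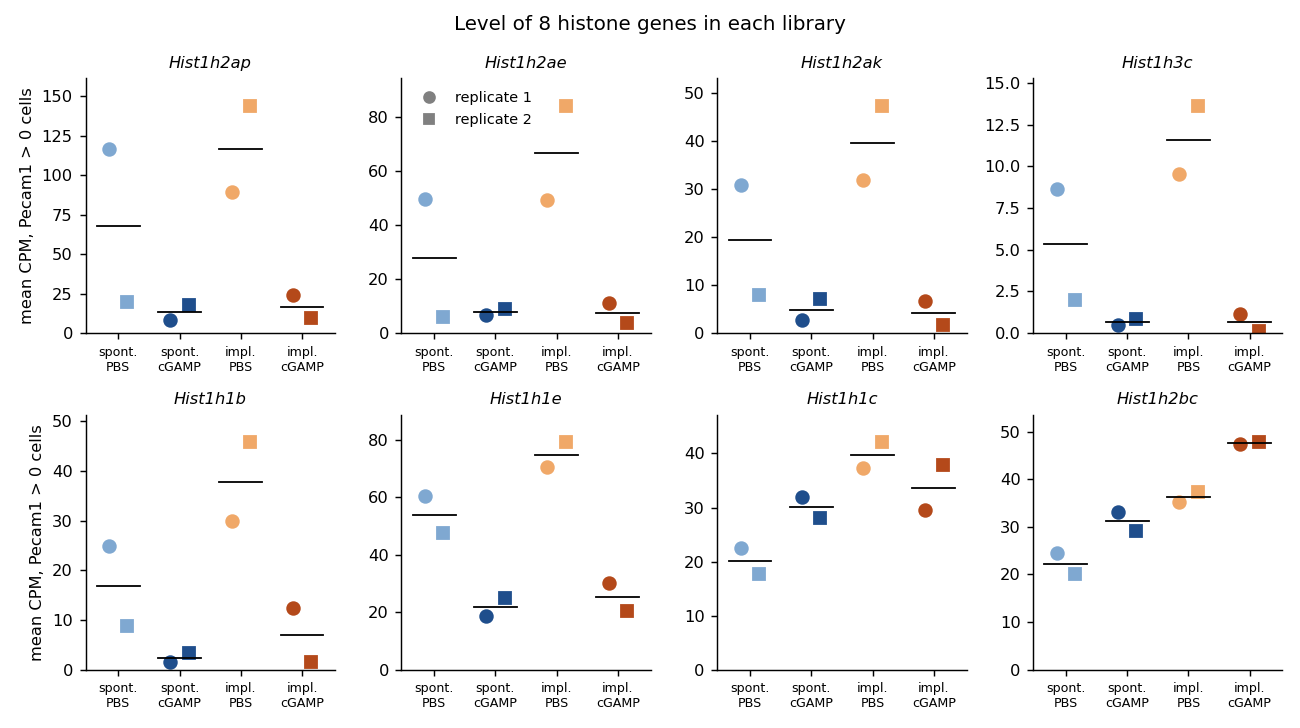
Mean CPM over Pecam1 > 0 cells of 8 members in each library, by group; points are libraries and lines mark the mean of 2. Hist1h2ap, Hist1h2ae, Hist1h2ak and Hist1h3c are spread in spontaneous PBS and high in implanted PBS, Hist1h1e separates PBS from cGAMP in both models, and Hist1h1c and Hist1h2bc do not follow that pattern.

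The comparison of both responses asked whether cGAMP acted differently on histone genes in implanted and spontaneous tumours. No member passed limma for the difference of the 2 responses (0 of 17, beside 0.662% of all genes), and Hist1h1c was the only member with an unadjusted p under 0.05, at -0.80 ± 0.22 on the log2 scale (adjusted p = 0.168). For Hist1h2ae the difference was -1.99 ± 1.08, for Hist1h2ak -1.55 ± 0.91 and for Hist1h3c -1.31 ± 0.81 (adjusted p = 0.456, 0.498 and 0.521). These errors leave room for sizeable differences in either direction, and the larger count of calls in implanted tumours is not shown to be a difference between the models.

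Between the models at the same treatment, 2 of 17 members were called after PBS, beside 7.83% of all genes (3.39% higher and 4.44% lower). Hist1h1c was higher in implanted tumours by 0.95 ± 0.16 (adjusted p = 0.00781) and Hist1h2bc by 0.68 ± 0.12 (adjusted p = 0.0115) on the log2 scale. The count was 4 without spontaneous PBS replicate 1, 1 without implanted PBS replicate 1, and 0 without spontaneous PBS replicate 2 or implanted PBS replicate 2. After cGAMP 1 of 17 was called, beside 13.8% of all genes (5.23% higher and 8.53% lower), which was Hist1h2bc, higher in implanted tumours by 0.60 ± 0.12 (adjusted p = 0.015). It was not called without spontaneous cGAMP replicate 2 (0.50), and 2 members were called without implanted cGAMP replicate 2. For Hist1h2ap, Hist1h2ae and Hist1h2ak the differences after PBS were 1.22 ± 0.72, 1.79 ± 0.76 and 1.25 ± 0.65, none of which passed.

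Within negative cells 13 members passed the filter on low values. In spontaneous tumours 3 were called, beside 10.3% of all genes (5.57% lower and 4.71% higher), namely Hist1h1e lower and Hist1h1c and Hist1h2bc higher. In implanted tumours 2 were called, beside 21.8% of all genes (13.6% lower and 8.14% higher), namely Hist1h1e lower and Hist1h2bc higher. The medians over the 13 were -0.02 and -0.12 on the log2 scale, against -0.09 for all genes in each model. Of the 4 H2A and H1 genes that fell most in implanted tumours over all cells, Hist1h2ap was at 5.97 and 27.1 CPM after PBS and 12.7 and 6.74 CPM after cGAMP in negative cells, and the values overlapped. The negative-cell values of Hist1h2ae (6.21 and 17.2 against 6.26 and 2.36 CPM) and Hist1h1b (2.79 and 6.69 against 10.7 and 1.20 CPM) overlapped too. Those of Hist1h2ak (3.27 and 6.94 against 2.44 and 0.293 CPM) did not, but its log2 fold change of -1.46 ± 0.59 missed the threshold (adjusted p = 0.107).

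Hist1h1e in negative cells was at 38.3 and 42.0 CPM after PBS and at 18.6 and 23.7 CPM after cGAMP in spontaneous tumours, and at 43.5 and 41.9 CPM against 28.3 and 20.3 CPM in implanted tumours. It fell by 0.90 ± 0.17 (adjusted p = 0.00903) and by 0.81 ± 0.17 (adjusted p = 0.0082) on the log2 scale. The implanted call held in all 15 alternatives tried, and the spontaneous call was lost without spontaneous PBS replicate 2 (-0.84) or cGAMP replicate 1 (-0.74). Hist1h1c rose by 0.71 ± 0.15 in spontaneous tumours (adjusted p = 0.0159), a call lost without spontaneous PBS replicate 1 (0.78), PBS replicate 2 (0.65) or cGAMP replicate 1 (0.60). Hist1h2bc rose by 0.51 ± 0.12 and 0.40 ± 0.12 (adjusted p = 0.027 and 0.04), and the calls were lost without any library of the same model (0.41 to 0.61 and 0.37 to 0.44) and, for the implanted call, without spontaneous PBS replicate 1 (0.40). The count of 3 was 0 without spontaneous PBS replicate 2 or cGAMP replicate 1 and 1 without PBS replicate 1. The count of 2 was 1 without spontaneous PBS replicate 1, either implanted PBS library or implanted cGAMP replicate 2.

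Positive cells were few after cGAMP (37 and 44 in spontaneous, 87 and 29 in implanted tumours), and 31 members passed the filter on low values among them. In each model 5 of the 31 were called, all lower, beside 4.35% of all genes in spontaneous tumours (1.97% lower and 2.38% higher) and 6.2% in implanted tumours (3.3% lower and 2.89% higher). Of these, 15 reached 5 CPM in 2 PBS libraries but not in 2 cGAMP libraries and none the reverse, so that their inclusion favoured lower values after cGAMP. As a description only, the medians of the 31 were -1.39 and -2.43 on the log2 scale against -0.14 and -0.11 for all genes, and -1.39 and -2.33 when 4 and 6 genes without any UMI after cGAMP were set to the difference that 3 counts in the group allow. Hist1h1e and Hist1h4d were called in both models. Hist1h1e was at 229 and 98.4 CPM after PBS against 19.7 and 43.9 CPM after cGAMP in spontaneous tumours, and at 194 and 243 CPM against 60.6 and 25.8 CPM in implanted tumours. Its log2 fold changes were -2.31 ± 0.46 (adjusted p = 0.013) and -2.43 ± 0.46 (adjusted p = 0.00903). Hist1h4d was at 109 and 64.1 CPM against 21.2 and 38.4 CPM and at 89.5 and 134 CPM against 45.9 and 36.2 CPM, with -1.52 ± 0.34 and -1.40 ± 0.34 (adjusted p = 0.024 and 0.0289).

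The other members called in positive cells differed between the models, which was not itself tested. In spontaneous tumours Hist1h1b was at 179 and 74.1 CPM after PBS against 9.88 and 0 CPM after cGAMP, Hist1h2ak at 224 and 35.8 CPM against 14.4 and 6.78 CPM, and Hist1h2ap at 811 and 145 CPM against 60.1 and 31.4 CPM. These genes fell by 5.14 ± 0.91, 3.06 ± 0.68 and 2.95 ± 0.68 on the log2 scale (adjusted p = 0.00594, 0.0245 and 0.0286). In implanted tumours Hist1h3c was at 51.9 and 56.4 CPM against 0.868 and 1.14 CPM and Hist1h4h at 22.4 and 26.7 CPM against 2.76 and 6.38 CPM, falling by 4.78 ± 0.80 and 2.27 ± 0.45 (adjusted p = 0.00428 and 0.0102). Hist1h1a, a linker gene at 13.3 and 34.2 CPM after PBS, had no UMI in positive cells of either implanted cGAMP library. It was at least 16.1-fold lower there, computed from summed UMIs against 3 counts over the group, and passed the test (adjusted p = 0.0117).

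These counts rest on single libraries. The 5 calls in spontaneous tumours became 0 without spontaneous PBS replicate 1, 8 without PBS replicate 2 and 1 without cGAMP replicate 1. The 5 calls in implanted tumours became 3 without implanted PBS replicate 1, 0 without PBS replicate 2, 2 without cGAMP replicate 2, 9 without cGAMP replicate 1, and 8 or 9 without any 1 of the spontaneous libraries. Thinned to 2000 UMIs per cell, no member was called in implanted tumours, where cGAMP replicate 2 was dropped because only 4 positive cells were left, and the contrast in spontaneous tumours could not be fitted, with 7 positive cells left in each cGAMP library.

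**Figure D3:**
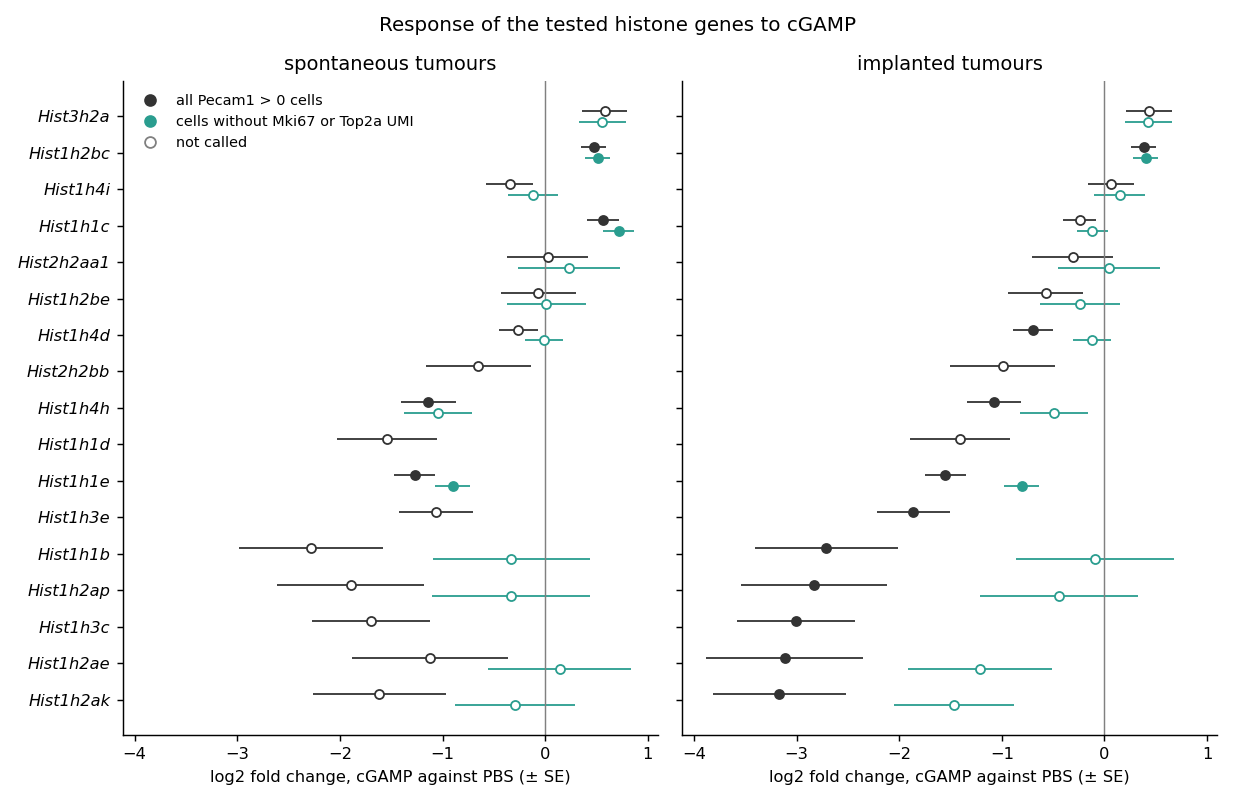
Log2 fold change of cGAMP against PBS (error bars are SE) for the 17 members tested over all Pecam1 > 0 cells, in each model, beside the same in cells without a UMI of Mki67 or Top2a where tested; filled symbols passed the threshold. In implanted tumours Hist1h2ak and Hist1h2ae stand near -3 over all cells (-3.17 and -3.12) and nearer 0 in negative cells, whereas Hist1h1e passed in both (-1.55 and -0.81).

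Positive cells were next compared with negative cells of the same library, with the library as a block and Mki67 and Top2a left out. Of 32 members that passed the filter, 19 were called and all were higher in positive cells, beside 10.3% of all genes (5.96% higher). A gene could pass through positive cells alone, which favoured higher values there. Hist1h1a, Hist1h1d, Hist1h2bb, Hist1h2bj, Hist1h3a, Hist1h3b, Hist1h3c, Hist1h3e, Hist1h3f and Hist2h2bb stayed below 5 CPM in the negative cells of every library. As a description only, the median log2 difference of the members was 1.28, against -0.03 for all genes. All 5 linker genes tested were among the 19 called. Hist1h1b was at 3.02 ± 0.35, Hist1h1a at 2.17 ± 0.35, Hist1h1d at 1.56 ± 0.39, Hist1h1e at 1.34 ± 0.14 and Hist1h1c at 0.51 ± 0.14. The H2A genes differed most, Hist1h2ap by 3.89 ± 0.22 (adjusted p = 3.69e-08), Hist1h2ak by 3.64 ± 0.27 (adjusted p = 3.23e-07) and Hist1h2ae by 3.59 ± 0.21 (adjusted p = 3.98e-08). Hist2h2ac differed by 1.04 ± 0.26.

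The H3 genes Hist1h3c (2.56 ± 0.34), Hist1h3b (1.52 ± 0.36), Hist1h3e (1.496 ± 0.33), Hist1h3f (1.37 ± 0.32) and Hist1h3a (1.21 ± 0.34) were higher as well, as were the H4 genes Hist1h4d (0.98 ± 0.12) and Hist1h4h (0.85 ± 0.19). Among H2B genes the rarely captured Hist1h2bb (1.68 ± 0.42), Hist2h2bb (1.66 ± 0.32) and Hist1h2bj (1.39 ± 0.36) were higher. The 4 named genes that did not pass were Hist1h2bc (0.42 ± 0.14, adjusted p = 0.0669), Hist1h4i (0.56 ± 0.24), Hist1h2be (0.03 ± 0.34) and Hist3h2a (-0.24 ± 0.14). The Hist1h1c call held in 6 of 14 alternatives. The count of 19 was 10 without spontaneous PBS replicate 1 or implanted PBS replicate 2, and 4 when cells were thinned to 2000 UMIs, which dropped the 3 cGAMP libraries with fewer than 10 positive cells left.

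**Figure D4:**
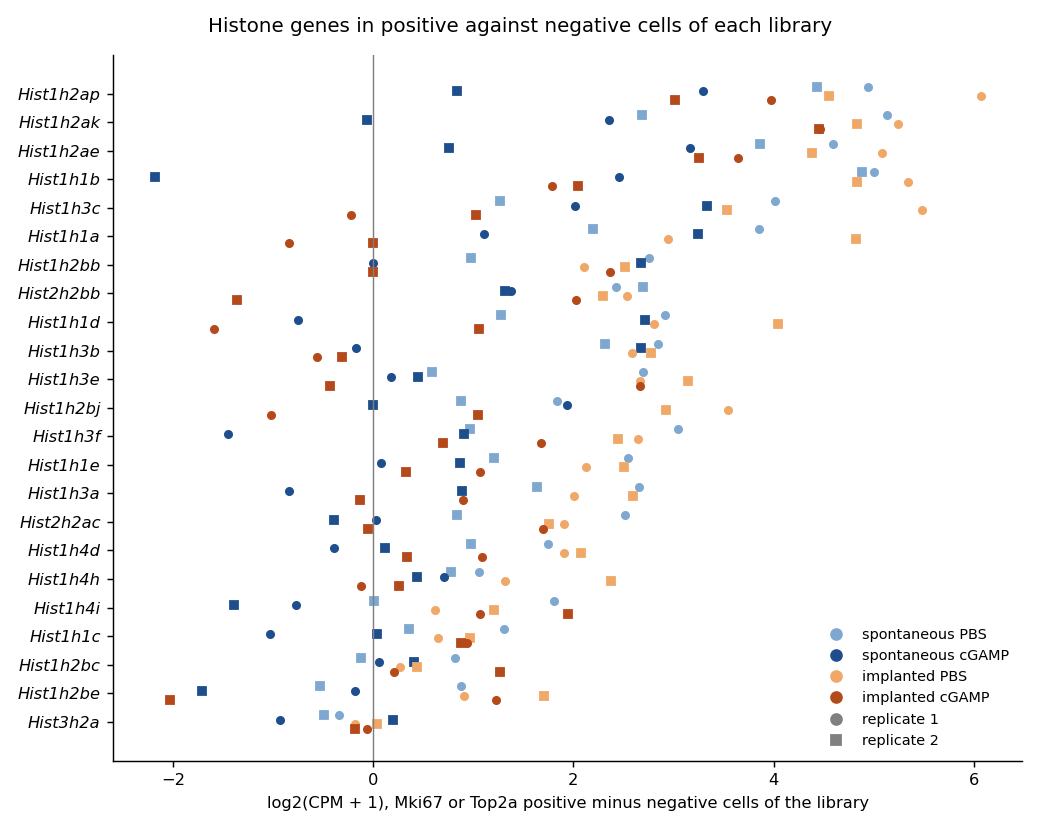
Difference of log2(mean CPM + 1) between cells with and without a UMI of Mki67 or Top2a, for 23 named members; each point is 1 library, coloured by group. For Hist1h2ap and Hist1h1b all points of PBS libraries lie right of those of cGAMP libraries. Hist1h2bc (-0.13 to 1.27) lies mostly above 0 and Hist3h2a (-0.93 to 0.20) mostly below 0.

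This difference was smaller after cGAMP for some members. Of the 32, 4 were called lower in cGAMP than in PBS libraries, beside 1.04% of all genes (0.897% lower), namely Hist1h1b, Hist1h1e, Hist1h2ap and Hist1h4d. For Hist1h2ap the positive minus negative difference was 4.94 and 4.43 in spontaneous and 6.07 and 4.55 in implanted PBS libraries, and 3.30, 0.84, 3.98 and 3.01 in the cGAMP libraries. For Hist1h4d it was 1.75, 0.98, 1.91 and 2.08 after PBS and -0.39, 0.12, 1.08 and 0.34 after cGAMP. In both genes, every PBS library stood above every cGAMP library except that Hist1h4d in spontaneous PBS replicate 2 lay below 1 implanted cGAMP library. The count was 0 without spontaneous PBS replicate 1 or implanted cGAMP replicate 2, and 2 without PBS replicate 2 of either model. No member was called when cells were thinned to 2000 UMIs, which left implanted cGAMP replicate 1 as the only cGAMP library, and the sign turned for Hist1h1b, Hist1h2ap and Hist1h4d.

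Members also differed in how much of their signal came from positive cells, beside where their annotated transcript ended. Of 29 genes with at least 100 UMIs, 24 held the stem-loop. Over these 24 genes, the share of UMIs in positive cells and the bases past the stem-loop had a Spearman rho of -0.53 and a Pearson r of -0.55 with log10 bases, given as a description since genes share libraries and sequence. These shares pool libraries that genes drew on unequally, with 6986 of 7361 Hist1h2ap UMIs but 851 of 2102 Hist3h2a UMIs from PBS libraries. Within PBS libraries alone rho was -0.52 and r was -0.54, and within cGAMP libraries, where single genes had as few as 3 UMIs, rho was -0.40 and r was -0.54. Among the 10 genes that ended within 200 bases of the stem-loop, a limit chosen after the values were seen, the median share was 73.4% (30.3% to 94.1%). For the 14 that went on further it was 31.9% (10.5% to 76.5%). Within PBS libraries these medians were 78.8% and 43.9%, and within cGAMP libraries 23.5% and 11.996%. Hist1h2ap (3 bases past the stem-loop) gave 94.1% of its UMIs in positive cells and Hist1h3c (74 bases) 91.1%. Hist3h2a (1643 bases) gave 13.4%, Hist1h1c (840 bases) 27.7% and Hist1h4d (770 bases) 34.8%. Hist1h4h, with 46 bases, gave 40.7%, and Hist1h1d, with 4884 bases, gave 76.5%, so that the ranges overlapped widely.

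**Figure D5:**
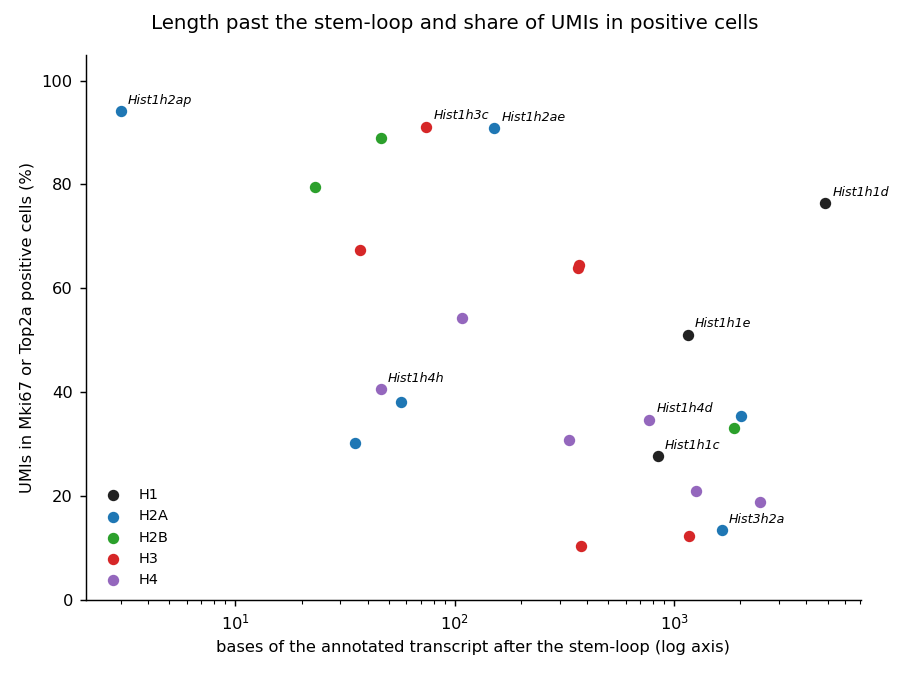
Share of a gene's UMIs that lay in cells with a UMI of Mki67 or Top2a, against the annotated bases past the stem-loop (log scale), for 24 members with at least 100 UMIs; each point is 1 gene, coloured by family. Shares range from 10.5% to 94.1% and are mostly higher for transcripts that end soon after the stem-loop, with Hist1h1d an exception at 76.5%.

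The genes that replace, make and deposit histones gave a context for the members. Of 10 replacement variant genes tested, 4 were lower and 1 higher after cGAMP in spontaneous tumours, and 7 were lower and 1 higher in implanted tumours. The counts of related genes after cGAMP stand beside 7.59% of all genes lower and 5.09% higher in spontaneous tumours, and 16.4% lower and 8.6% higher in implanted tumours. H3f3b, a gene of a replication-independent H3 variant, was the gene that rose. It went from 1060 ± 29 to 1506 ± 34 CPM in spontaneous tumours (log2 fold change 0.51 ± 0.06, adjusted p = 7.9e-04). In implanted tumours it went from 1237 ± 1 to 1983 ± 51 CPM (0.68 ± 0.06, adjusted p = 9.8e-05). H3f3a, another such gene, was lower in implanted tumours (-0.45 ± 0.07, limma adjusted p = 0.0022) and was not called in spontaneous tumours (-0.10 ± 0.07). H2afz, an H2A variant at promoters, fell by 0.58 ± 0.12 and 1.10 ± 0.12, and Cenpa, the centromeric H3 variant, by 1.25 ± 0.28 and 2.37 ± 0.28 on the log2 scale.

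Of 14 genes for histone mRNA synthesis and processing, 2 were lower and none higher in each model, and they were Ice1 and Slbp in spontaneous tumours and Ccne2 and E2f1 in implanted tumours. In implanted tumours that is no more than the 16.4% of all genes that were lower. Slbp was at 52.6 ± 0.7 CPM after PBS and 39.7 ± 3.1 CPM after cGAMP in spontaneous tumours, a fall of 0.40 ± 0.11 on the log2 scale (limma adjusted p = 0.0499). This was close to the threshold, and Slbp was not called in negative cells of these tumours (-0.23 ± 0.12, limma adjusted p = 0.275). In implanted tumours Slbp was at 52.8 ± 5.6 against 44.2 ± 3.9 CPM (-0.25 ± 0.11, limma adjusted p = 0.14). Npat, the coactivator of histone gene transcription, was at 17.6 ± 2.5 against 15.2 ± 3.1 CPM and at 17.1 ± 1.7 against 13.6 ± 1.0 CPM, and passed in neither.

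Among 15 histone chaperone and acetylation genes, 3 were lower in spontaneous and 6 in implanted tumours, with none higher. Nap1l1, an H2A and H2B chaperone, fell by 0.57 ± 0.08 and 0.56 ± 0.08. DNA replication genes were lower in 9 of 24 and 16 of 24 cases and mitosis genes in 4 of 19 and 19 of 19, again with none higher. Here too a gene could pass the filter through the group in which it was high. Aurka, Bub1, Bub1b and Kif20a reached 5 CPM in implanted PBS libraries only, which favoured lower values after cGAMP there. For the difference of the responses 0 of 19 mitosis genes were called. Rrm2, a subunit of ribonucleotide reductase, was at 13.4 ± 1.9 against 1.87 ± 1.18 CPM in spontaneous tumours and at 20.6 ± 3.7 against 2.25 ± 0.98 CPM in implanted tumours, falling by 2.39 ± 0.34 and 2.75 ± 0.34. Pcna, the sliding clamp, was at 41.7 ± 6.9 against 31.7 ± 1.1 CPM and at 44.2 ± 4.6 against 44.1 ± 1.0 CPM, and did not pass.

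In negative cells 0 of 20 DNA replication genes were called in spontaneous tumours by limma (1 at an unadjusted p under 0.05) and 2 of 20 (Mcm7 and Rrm1, both lower) in implanted tumours, beside 10.3% and 21.8% of all genes called. Of 10 replacement variants, 2 were lower and 1 higher in negative cells of spontaneous tumours, and 6 were lower and 2 higher in those of implanted tumours. In the latter H2afj fell by 0.73 ± 0.08 and H3f3b rose by 0.71 ± 0.06 on the log2 scale, while H3f3a was lower (-0.44 ± 0.07). Positive cells stood above negative cells in 26 of 28 DNA replication genes, 20 of 20 mitosis genes, 14 of 17 chaperone genes, 7 of 15 mRNA synthesis and processing genes and 5 of 11 replacement variants, with none lower, beside 5.96% of all genes higher. H3f3b gave a difference of -0.014 ± 0.042 there and did not pass (adjusted p = 0.887). Mki67 and Top2a, genes of cycling cells, set the strata, so the counts for replication and mitosis genes are not independent of the split. A gene could also pass the filter through positive cells alone. Within negative cells only 6 mitosis and 20 DNA replication genes passed it.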

How the data were processed

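The authors sorted live CD31+ cells without CD45, aligned reads to mm10 with Cell Ranger 3.0.0 and built matrices with Seurat 3.1.1. They discarded cells with under 500 genes or over 10% mitochondrial UMIs. The deposited values are the natural log of 1 plus UMIs per 10000 in the cell. They were turned back to CPM, and all values came out whole as UMIs (within 0.01). The annotation release was not given in the sources used here. Members were taken by name, and members and lists were chosen with earlier results of these data known. Named were all linker genes, the 12 core genes with the highest mean CPM, and members called in any of 11 comparisons. A gene entered the test if 2 or more libraries showed 5 CPM or more, and was tested with limma 3.58.1 (R 4.3.3; trend, Benjamini-Hochberg) on log2(mean CPM + 1), a scale that understates changes of low genes, with all 8 libraries in 1 fit. The fit was tested on simulated data. Intervals and floors of 3 counts cover counting error only. Replicates of a group correlated at r of 0.975 to 0.989, and replicate numbers did not pair libraries (correlations of -0.22 to 0.13). Alternatives were another pseudocount, filter, scaling, cell choice, thinning, a replicate block and leaving out libraries. No doublet caller was run.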

Additional observations from a re-analysis of the deposited data

Results flagged for a closer look

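For 4 members, the difference between cells with and without a UMI of Mki67 or Top2a was smaller in cGAMP than in PBS libraries, by limma's test of that difference with the library as a block. The differences on the log2 scale were -3.99 ± 0.69 for Hist1h1b (adjusted p = 0.0138), -1.51 ± 0.29 for Hist1h1e (adjusted p = 0.0217), -2.22 ± 0.44 for Hist1h2ap (adjusted p = 0.0263) and -1.39 ± 0.24 for Hist1h4d (adjusted p = 0.0138). For Hist1h1b, positive cells exceeded negative cells by 5.01, 4.88, 5.34 and 4.83 in the 4 PBS libraries and by 2.45, -2.18, 1.79 and 2.04 in the 4 cGAMP libraries. Hist1h1e gave 2.55, 1.21, 2.13 and 2.51 after PBS and 0.08, 0.86, 1.07 and 0.33 after cGAMP. The count of 4 was 0 without spontaneous PBS replicate 1 or implanted cGAMP replicate 2, and 2 without spontaneous PBS replicate 2 or implanted PBS replicate 2. A larger part of the positive cells rested on 1 UMI of Mki67 or Top2a after cGAMP (62.2% to 81.8%) than after PBS (36.9% to 49.1%), and its part in the result was not tested.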

How the results depend on the processing

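Of 55 calls of single members, 7 held in every alternative tried and 3 reversed in at least 1. Over 896 alternatives of single calls, 651 kept their direction and call and 242 lost the call. Counts of members called, when 1 library was left out, ran from 1 to 7 (all cells, spontaneous, reported as 4), 2 to 10 (implanted, 10), 0 to 0 (difference of responses, 0), 0 to 4 (models after PBS, 2), 0 to 2 (models after cGAMP, 1), 0 to 4 and 1 to 3 (negative cells, 3 and 2), 0 to 8 and 0 to 9 (positive cells, 5 and 5), 10 to 20 (positive against negative, 19) and 0 to 5 (its difference by treatment, 4). Where the arm left had 1 library, it was assumed to vary like the other groups. With no filter on low values, more genes were tested, and the counts were 1 in spontaneous tumours (beside 812 of all 18812 genes), 1 and 4 in negative cells, 0 and 2 in positive cells of spontaneous and implanted tumours, 10 for positive against negative cells and 0 for its difference by treatment. From summed UMIs they were 11 in spontaneous tumours, 2 between models after cGAMP, 5 in spontaneous negative cells, 14 and 14 in positive cells and 13 for the difference by treatment. Calls over all genes rose as well, in spontaneous tumours from 1322 of 10424 to 2839 of 10354. Between models after cGAMP they went from 1434 of 10424 to 2069 of 10354. The cause was not tested. Thinned to 2000 UMIs the members' counts were 2 in spontaneous tumours (beside 678 of all 10544 genes) and 0 and 0 between models after PBS and cGAMP (beside 385 and 720). They were 1 in implanted negative cells, 0 in implanted positive cells, 4 for positive against negative cells and 0 for its difference by treatment. Under thinning that difference turned to 1.08 for Hist1h1b, 0.80 for Hist1h2ap and 1.04 for Hist1h4d (adjusted p = 0.73, 0.74 and 0.60), with the 3 cGAMP libraries of fewer than 10 positive cells dropped, and the contrast in spontaneous positive cells could not be fitted. With at least 2 UMIs of Mki67 or Top2a, which dropped libraries with fewer than 10 such cells, the counts were 9 in spontaneous positive cells and 2 for the difference by treatment, which was 1 with a pseudocount of 0.1 and 7 with a pseudocount of 5. The replicate block gave 10 calls in implanted positive cells and moved no other count by over 1.5 times. The labels share numbers only, so that nothing ties these libraries. Median-of-ratios scaling left the members' counts within 1.5 times, while the share of higher calls among all genes went from 40.2% to 66.4% in spontaneous and from 34.3% to 51.5% in implanted tumours. The cGAMP libraries held 29 to 87 positive cells each. Some members' counts under other settings, or with a library left out, have no count over all genes beside them. They were not compared with calls over all genes, and are not read as results about the members.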

Other observations

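Cells without a Pecam1 UMI, which entered no comparison, gave member totals of 1107 and 717 CPM after PBS and 334 and 288 CPM after cGAMP in spontaneous tumours. In implanted tumours these cells gave 1088 and 3050 CPM after PBS and 496 and 220 CPM after cGAMP. H2A genes made up 504 and 298 CPM of the spontaneous PBS values and 572 and 1617 CPM of the implanted PBS values.

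Among Pecam1 > 0 cells, those with UMIs of both Mki67 and Top2a held the highest member totals in PBS libraries, at 4689 and 1371 CPM in spontaneous (41 and 21 cells) and 3615 and 4064 CPM in implanted tumours (73 and 93 cells). The cGAMP libraries had 8, 4, 11 and 2 such cells. Their totals were 375 and 248 CPM in spontaneous and 1084 and 2092 CPM in implanted tumours. Cells with Top2a alone gave 1375 and 229 CPM in spontaneous PBS libraries and 290 and 1239 CPM in implanted PBS libraries, so that replicates differed widely.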
